A study of Homo sapiens with 10 samples.

Results

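The m6A peak list of HT29, a human colorectal cancer cell line, was compared peak by peak with the lists of 4 other colon cancer lines. All HT29 peaks on chromosomes 1 to 22 were taken, 8539 of the 8941 in the list and of the 38106 in the 5 lists together. Each was called private when it overlapped no peak of the HCT116, HCT15, COLO320DM and COLO205 lists, and shared when it overlapped a peak of at least 1 of them by 1 nt or more. By this rule 3113 HT29 peaks (36.5%) were private and 5426 were shared.

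Total RNA was cut to pieces of about 100 nt, the pieces carrying N6-methyladenosine (m6A) were pulled down with an antibody, and these were sequenced beside RNA set aside before the pull-down (the input). The study holds 10 samples, 1 immunoprecipitation (IP) and 1 input for each line, with no replicates, so every difference given is between libraries and carries no test. The labels name no treatment and give the same serum-supplemented DMEM for every line. The label for HT29, as for HCT116 and HCT15, is colorectum, and that for COLO205 and COLO320DM is colon. Each line stands for 1 tumour, and the labels name no clone or passage.

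m6A is the most common internal modification of mRNA. It is written by the METTL3-METTL14 methyltransferase with the partners WTAP, RBM15 and ZC3H13, and is bound by YTH-domain and IGF2BP proteins that act on splicing, translation and decay of the RNA. It is known to gather in long internal exons and near stop codons. HT29 is a microsatellite-stable line with a mutant BRAF gene, and COLO205 carries a mutant BRAF too, while HCT116 and HCT15 are mismatch-repair deficient.

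The lists carry no read counts, but the fold and p-value of each peak fix the number of IP reads over its summit and its local background under the model of the peak caller. The recovered depth was 2.13 M IP reads and 3.10 M control reads in HT29, against 1.38 M to 2.99 M IP reads in HCT116, COLO320DM and COLO205. A peak was called input-poor where its local background was under 1 control fragment, and input-covered otherwise. Of the HT29 peaks 61.9% were input-poor. The HCT15 list held only 852 peaks on these chromosomes, against 8304 to 9284 in the other 3, so sharing with HCT15 is limited by its length.

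Private peaks were 36.5% of the HT29 list (95% interval 35.4% to 37.5%). The same rule gave 38.5% in HCT116, 47.1% in COLO320DM, 33.8% in COLO205 and 5.87% in HCT15, so the HT29 share lay inside the range of the long lists. Exactly 1 other list held 24.7% of HT29 peaks (2113), 2 lists held 17.8% (1519), and 3 or 4 lists held 21% (1794, of which 22 were in all 4). The HT29 share depends on the overlap asked for, and was 55.8% with a reciprocal overlap of 50% and 23.7% when a gap of up to 1 kb still counted as shared. All intervals take each peak as independent and cover counting error only, and those of shares are exact Clopper-Pearson intervals.

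Private HT29 peaks were the weakly supported end of the list. Their summits held a median of 5 IP reads (quartiles 4 to 7, highest 45), against 11 for shared peaks (7 to 19, highest 129). The median climbed with the number of lists, from 7 reads in 1 other list to 11 in 2 and 19 in 3 or more, and it was 34 for the 22 peaks found in all 4. Fewer than 5 reads stood behind 34.2% of private and 7.57% of shared peaks. At the other end, 6 private and 513 shared peaks had 32 or more reads. The authors' median −log10 p was 8.27 for private and 11.01 for shared peaks, and their median fold was 5.37 and 6.07. With each list cut to its 852 strongest peaks the fold difference shrank from -0.71 to -0.046.

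Local input differed between the groups too, but little at equal reads. Input-poor peaks made up 86.3% of private peaks (85.1% to 87.5%) and 47.9% of shared peaks, falling to 20.2% of those in 3 or more lists. The background stood at its lowest level, the genome mean, under 30.7% of private and 14.2% of shared peaks. Reads and input are tied, since a peak over more input needs more reads to be called. At 5 to 7 reads 93.2% of private and 91.2% of shared peaks were input-poor, and at 8 to 15 reads 49.7% and 47.9%. At 16 to 31 reads the order turned, to 2.47% of private and 7.89% of shared peaks. At matched reads the private shares of input-poor and input-covered HT29 peaks lay closer than over the whole list, where they were 50.8% and 13.1%. They were 53.7% and 46.5% at 5 to 7 reads, 21.3% and 20.1% at 8 to 15, and 1.83% (2 of 109) and 5.95% at 16 to 31. A peak list cannot tell a site that carries more m6A from a transcript that is more abundant.

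**Figure D1:**
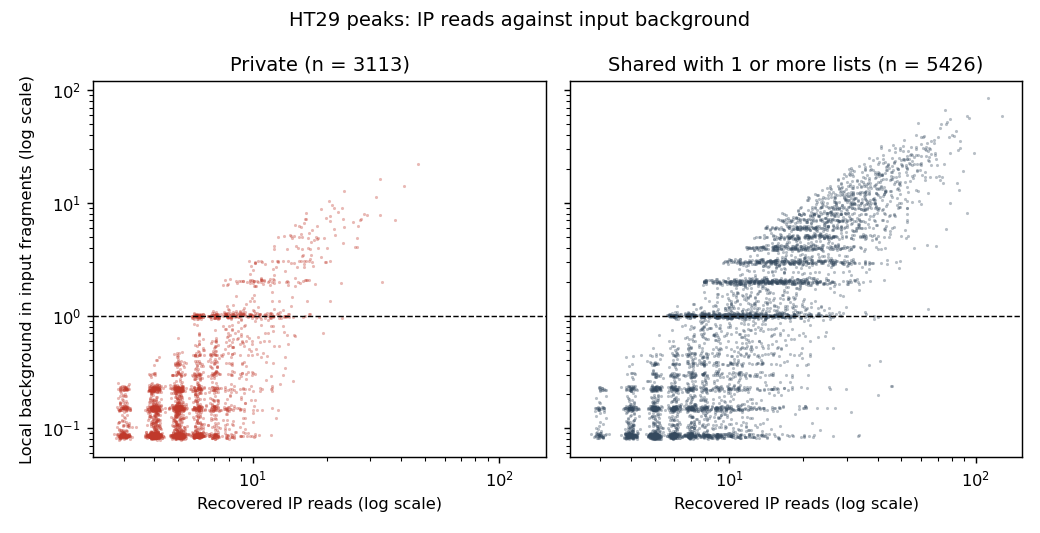
Each point is 1 HT29 peak on chromosomes 1 to 22, with recovered IP reads on the x axis and local background in input fragments on the y axis, both logarithmic with a small random shift to separate ties. The dashed line marks 1 input fragment. Private peaks (left) crowd at few reads below the line, where 86.3% of them lie, while shared peaks (right) reach 129 reads.

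The private share dropped steeply with read support. It was 72.2% of HT29 peaks with 3 or 4 reads, 53.1% with 5 to 7, 20.7% with 8 to 15, 5.64% with 16 to 31 and 1.16% (6 of 519) with 32 or more. At 3 or 4 reads the private share was 61.1% in HCT116, 86.0% in COLO320DM and 64.8% in COLO205. At 32 or more reads it was 10.6% in HCT116, 15.6% in COLO320DM and 16.7% in COLO205, all above HT29. Without peaks near chromosome ends or centromeres it was 1.39% in HT29 and 11.2% to 13.4% in the others. With a reciprocal overlap of 50% it was 8.29% in HT29, 19.9% in HCT116, 22.8% in COLO320DM and 24.1% in COLO205, so HT29 stayed lowest while its value moved most in proportion. HT29 was lowest on another scale too. Among the 500 peaks of each list with the highest −log10 p, HT29 had 9 private ones, COLO205 25, HCT116 27 and COLO320DM 66. Equal reads do not mean equal support across lists, because depth differed. COLO205 carried much of the HT29 value, since leaving its list out moved the HT29 share at 32 or more reads to 9.44%, and leaving out HCT116 moved it to 3.28%.

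**Figure D2:**
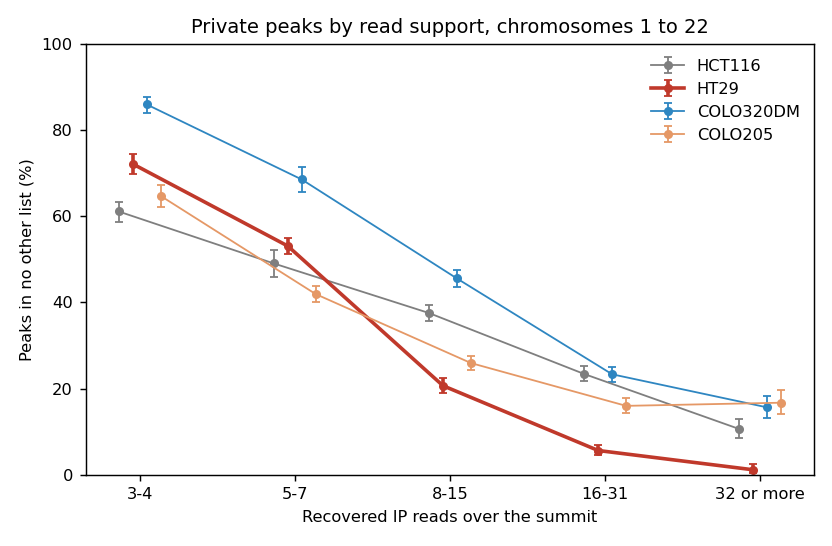
The y axis gives the percent of a list's peaks that overlap no other list, and the x axis the recovered IP reads over the summit in 5 classes. Points are the 4 long lists, with bars for exact 95% binomial intervals that cover counting error only; HT29 (red) runs from 72.2% to 1.16% and ends lowest of the 4.

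Private peaks were also narrower, with a median of 103 nt (quartiles 75 to 154, widest 840) against 148 nt for shared peaks (100 to 238). A wide peak meets another list more easily, so width is partly tied to the rule. At 8 to 15 reads the medians were still 120 and 154 nt. Peaks under 80 nt, close to the 75 nt of the shortest, were 32.3% of private and 11.3% of shared peaks. Another HT29 peak lay within 1 kb of 40.7% of private and 41.5% of shared peaks. Among shared peaks this fell from 49.8% in 1 other list to 41.4% in 2 and 31.8% in 3 or more.

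COLO205 was the list that HT29 peaks met most. It held 52.0% of HT29 peaks, against 37.2% in HCT116, 26.6% in COLO320DM and 7.82% in HCT15. It was also the longest and deepest of the long lists. With each list cut to its 852 strongest peaks the shares were 35.2% for COLO205, 30.2% for HCT116, 25.8% for HCT15 and 23.4% for COLO320DM. Of the HT29 peaks with 32 or more reads, 95.6% were in COLO205 and 61.1% in COLO320DM. Where exactly 1 other list held the peak, that list was COLO205 in 1445 of 2113 cases (68.4%).

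The peaks met by COLO205 alone had few reads (median 7) and 76.9% were input-poor, near the private peaks, but their median width of 149 nt was that of shared peaks. Their COLO205 partners were weak as well, with a median of 6 reads and 70.7% input-poor, beside 8 reads and 50.4% in the whole COLO205 list. The 1474 peaks in HCT116, COLO320DM and COLO205 had a median of 20 reads and only 13.2% were input-poor. A different set of 284 peaks was met by HCT116, HCT15 and COLO205 but not COLO320DM. These were wide (median 359.5 nt) with a median fold of 9.44, and 43.3% of them lay within 5 Mb of a chromosome end.

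**Figure D3:**
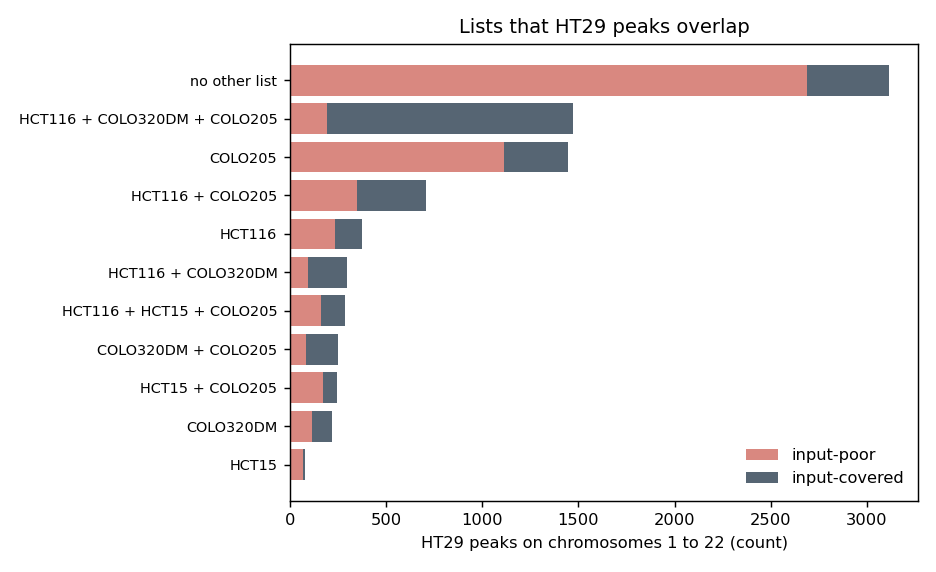
Bars count HT29 peaks on chromosomes 1 to 22 by the exact set of other lists they overlap, for the 11 largest sets, split into input-poor (light) and input-covered (dark) peaks. The private bar of 3113 and the COLO205 bar of 1445 are mostly light, and the bar of 1474 for HCT116, COLO320DM and COLO205 is mostly dark.

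Many private peaks lay beside a peak of another list. The nearest one was within 100 nt for 377 of the 3113 (12.1%), within 1 kb for 1091 (35.05%) and beyond 100 kb for 478, with a median gap of 9.42 kb. Edge cases show the threshold. The private peaks at chr10:12657726-12657949 (7 reads), chr11:69047038-69047597 (7 reads) and chr12:20244135-20244209 (4 reads) touched a peak of another list without overlapping it. The shared peaks at chr15:80736987-80737061 (4 reads) and chr3:158290117-158290229 (5 reads) overlapped a COLO205 peak by 1 nt. Such cases were few, as the median overlap of shared peaks was 113 nt and 97 (1.79%) overlapped by under 20 nt.

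The strongest private peak by −log10 p lay at CFTR, the epithelial chloride channel gene, at chr7:117307139-117307336 (hg19, as all positions here). It held 35 IP reads over 2 input fragments, with a fold of 15.2 and a −log10 p of 37.2. No other list had a peak at CFTR, and the nearest lay 44.3 kb away. The next, at SEPTIN7 (a septin of the cytoskeleton; chr7:35942671-35942786), held 22 reads over 1 fragment with a fold of 13.6. COLO320DM and COLO205 each had 1 peak elsewhere at SEPTIN7, the nearest 4732 nt away. TUT7, a terminal uridylyltransferase, had a private peak at chr9:88961310-88961423 with 12 reads at the genome-mean background and a fold of 12.3. TUT7 also had 3 shared HT29 peaks, so neither this locus nor SEPTIN7 was marked in HT29 alone.

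The fourth and the fifth each lay at a locus with a shared HT29 peak. The peak at MTDH (chr8:98698877-98698972; 15 reads, fold 13.6) lay 653 nt from a peak of another list, and MTDH had a second HT29 peak of 20 reads shared with HCT116 and COLO205. The peak at NUPR1, a stress-induced nuclear protein gene (chr16:28550155-28550260; 19 reads, fold 13.7), lay 1.33 kb from one, beside an HT29 peak of 21 reads shared with COLO320DM and COLO205.

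The private peaks with most reads had much input beneath them. The highest, 45 reads over 21 fragments at the histone gene H2BC6 (chr6:26184047-26184139), had a fold of only 2.99. The second, 44 reads over 14 fragments at chr10:42384483-42384592, lay 0.13 Mb from the assembly's centromere gap and 103 nt from a peak of another list. The third, at ALPK3 (an alpha-kinase gene; chr15:85383301-85383668), had 37 reads over 7 fragments and a fold of 6.55. The widest private peak was the reverse case: 840 nt at PTPRN2 (chr7:157964924-157965763) with 10 reads and a background at the genome mean. COL22A1, a collagen gene, held the next, of 744 nt with 11 reads and 715 nt with 9.

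The strongest shared peaks exceeded every private one in −log10 p. HHAT, the hedgehog acyltransferase gene, had 46 reads and a fold of 40.7 at chr1:210827201-210827639, met by HCT116, HCT15 and COLO205. ANKDD1A held the widest HT29 peak, 4027 nt with 64 reads and a fold of 35.7 at chr15:65243376-65247402. Several lay at chromosome ends and at none of the listed loci. The peaks at chr5:9985-11814 (33 reads, fold 32.1) and chr1:9965-10435 (41 reads, fold 24.9) were in all 4 other lists, and chr12:95354-95749 (46 reads, fold 40.5) was in 3. SEC62, a gene of protein import into the endoplasmic reticulum, had the strongest peak in all 4 lists away from an end, with 67 reads and a fold of 18.2 at chr3:169710532-169710887.

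Among peaks met by 1 list, the strongest were chr10:132840219-132840763 (21 reads, fold 20.8) and chr10:102411093-102411223 (20 reads, fold 19.04), both in COLO205. The third, at the end of chromosome 18 (chr18:9982-10550; 18 reads), was in HCT116.

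At 123 known loci, grouped by function, HT29 had 122 peaks at 55 loci. Of these, 15 were private (12.3%, 7.05% to 19.5%), below the 36.5% of all HT29 peaks, and 55 were in 3 or more lists. Only 20.5% were input-poor, against 61.9% of the list, so these loci hold the better covered kind of peak. HCT116 had peaks at 66 of the loci, COLO205 at 69, COLO320DM at 54 and HCT15 at 3. APC, KLF4 and CEACAM6 had peaks in HT29 and in no other list. Since the loci were picked as well-studied genes, their share does not stand for the list. With a reciprocal overlap of 50% it was 31.97%.

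In the Wnt pathway, HT29 had 8 peaks at 7 of 13 loci, 2 of them private (25%, 3.19% to 65.1%). That interval holds the 36.5% of the whole list. APC, the scaffold of the complex that degrades beta-catenin, had 9 reads at 0.300 input fragments and a fold of 8.29 at chr5:112174414-112174531, in the last 10% of the gene's length. TCF7L2, a transcription factor that beta-catenin binds, had 11 reads over 2 fragments at chr10:114911451-114911602. COLO205 had 1 peak elsewhere at TCF7L2, and the nearest peak of another list lay 7692 nt away. The other Wnt peaks were widely shared: RNF43 (22 reads) and ZNRF3 (20 reads), ligases that remove Wnt receptors, and the receptors LRP6 (11 reads) and FZD7 (11 reads) each had 1 peak in HCT116, COLO320DM and COLO205 as well. SOX9, a Wnt target, had 2 shared peaks of 32 and 55 reads.

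Of 18 receptor, RAS-RAF and PI3K loci, 5 had HT29 peaks, 9 in all and 0 private. The interval, 0% to 33.6%, holds the 12.3% of all listed loci but lies below the 36.5% of the whole list. There was no HT29 peak at BRAF. EGFR, a receptor tyrosine kinase of this pathway, had 4 peaks of 6 to 18 reads, and EPHA2 had 2 of 25 and 38 reads shared with HCT116. IGF2R (34 reads) and PIK3CA (10 reads), the catalytic subunit of PI3-kinase, had 1 peak each in 3 other lists. At the 9 damage and repair loci, BRCA2 had the 1 private peak, of 4 reads (chr13:32910675-32910749), beside 3 shared peaks at BRCA2, MDM2 and MSH6. That share, 25% of 4 peaks, has an interval of 0.631% to 80.6%, which holds the 36.5% of the whole list.

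The genes of the m6A machinery carried peaks themselves. HT29 had 18 peaks at 6 of its 11 loci, 3 of them private (16.7%, 3.58% to 41.4%). The 36.5% of the whole list lies inside this interval. Of the 18, 11 lay at ZC3H13, a subunit of the writer complex. ZC3H13 peaks ran from 7 to 60 reads with folds up to 19.04. Both private ones held 7 reads, at chr13:46543145-46543241 and chr13:46563055-46563236, while 5 were in 2 other lists and 4 in 3. HCT116 and COLO205 had 8 peaks each at ZC3H13 and COLO320DM had 4. The readers YTHDF1 (18 and 26 reads) and YTHDF2 (28 and 6 reads) had only shared peaks. IGF2BP2, an m6A-binding protein, had a private peak of 10 reads at the 3′ end of the gene (chr3:185361544-185361663), 1472 nt from a peak of another list.

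Chromatin regulators gave the most HT29 peaks of any group of loci, 37 at 11 of 14 loci. Of these, 24 were in 3 or more lists and 2 were private (5.41%, 0.661% to 18.2%). That interval holds the 12.3% of all listed loci and lies below the 36.5% of the whole list. EP300, a histone acetyltransferase, had 5 peaks of 10 to 19 reads, all in HCT116, COLO320DM and COLO205. The private ones were weak, with 6 reads each at KMT2C (chr7:151874775-151874887) and SETD2 (chr3:47125274-47125348), both histone methyltransferases, and the SETD2 peak lay 54 nt from a peak of another list. The large coding gene DSP, which encodes desmoplakin, likewise had 5 peaks of 20 to 29 reads, all in the same 3 lists.

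Immediate-early and short-lived transcripts gave 16 HT29 peaks at 10 of 14 loci, and 0 of them were input-poor. Private peaks were 2 of the 16 (12.5%, 1.55% to 38.3%), an interval that holds the 36.5% of the whole list. EGR1 (48 and 51 reads), JUN (56 and 43) and SOX4 (23, 40 and 52), all transcription factor genes, had only shared peaks. Of the private 2, HES1, a repressor downstream of Notch, had 19 reads over 4 fragments at chr3:193854150-193854239, and COLO205 had a separate peak at that locus. KLF4, a transcription factor of differentiating epithelium, had 15 reads over 5 fragments and a fold of 3.61 at chr9:110248008-110248188. No peak of another list lay within 138661 nt of it.

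At intestinal epithelial genes HT29 had 18 peaks at 8 of 16 loci. Of these, 5 were private (27.8%, 9.69% to 53.5%), an interval that holds the 36.5% of the whole list, and 10 were input-poor. By comparison, HCT116 had peaks at 6 of the loci, COLO205 at 8, HCT15 at 2 and COLO320DM at 1. A peak needs transcript as well as m6A, and the lists hold no expression, so these loci check the label only in part. The blood and fibroblast genes PTPRC, COL1A1 and VIM had no peak in any list. The same held for the epithelial genes KRT8, KRT18, KRT20, VIL1, LGALS4 and CEACAM5 and the housekeeping genes ACTB, GAPDH and EEF1A1. The absence of a peak therefore does not tell these cell types apart. EPCAM (28 reads, shared with COLO205), CDH1 (31 reads) and ELF3 (32 reads) each had 1 shared HT29 peak.

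CEACAM6, an adhesion molecule of colon epithelium, had a private peak of 14 reads over 4 fragments at chr19:42274821-42274942, 147372 nt from the nearest peak of another list. CDX2, an intestinal transcription factor, had 6 HT29 peaks of 4 to 8 reads, the 1 private with 4 reads (chr13:28542931-28543005) and the other 5 met by COLO320DM, 2 of them also by HCT116. HNF4A, another such factor, had 2 input-poor peaks of 8 reads, 1 private (chr20:43033399-43033700) and 1 shared with COLO205. MUC2, the gel-forming mucin of goblet cells, had a shared peak of 1093 nt with 72 reads and a fold of 14.3 at chr11:1092539-1093631, met by HCT116, HCT15 and COLO205.

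**Figure D4:**
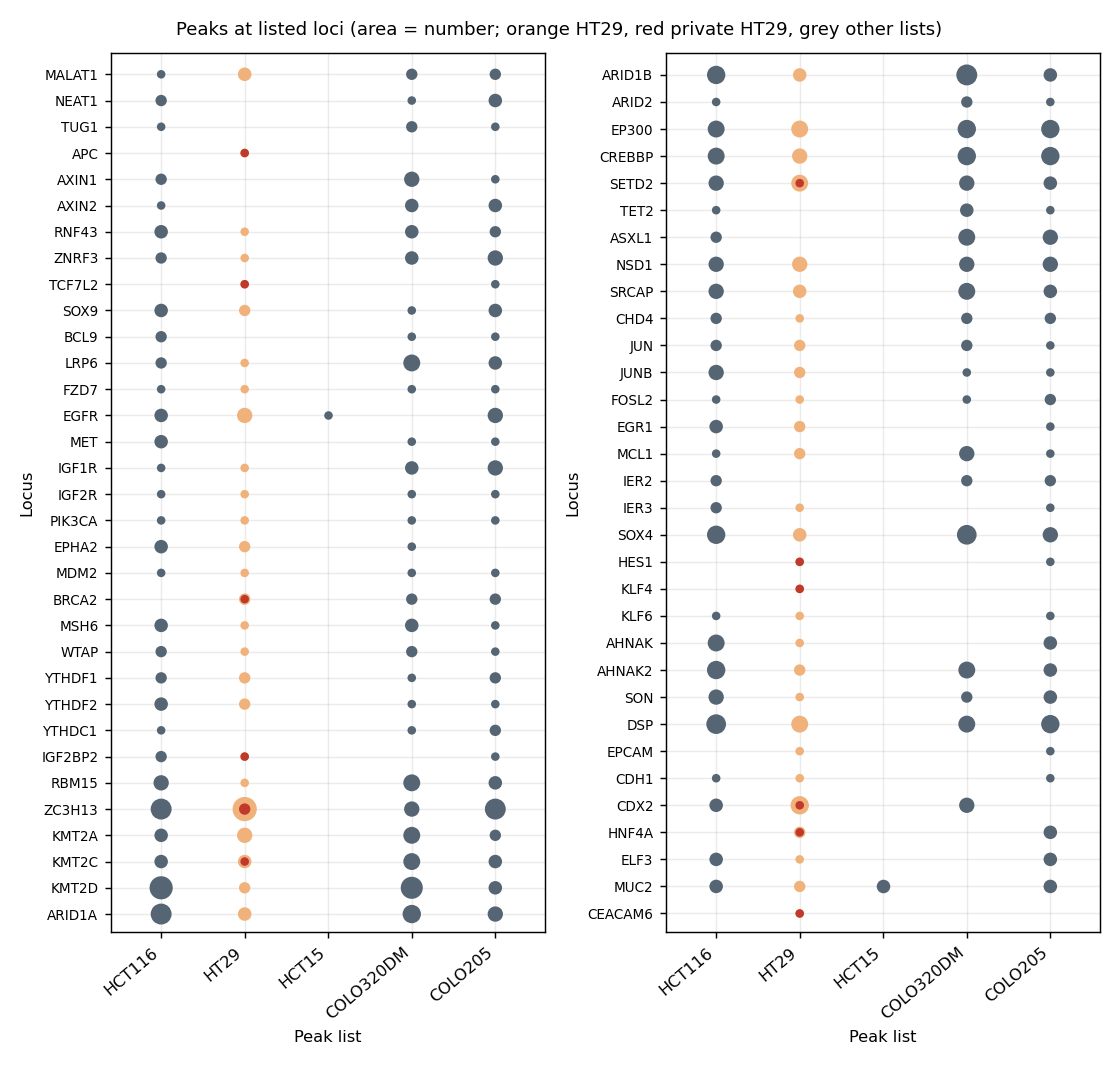
Rows are 65 of the 66 listed loci with a peak in HT29 or in all of HCT116, COLO320DM and COLO205; columns are the 5 lists, and the area of a dot is proportional to the number of peaks. HT29 dots are orange with the private part red. APC, KLF4 and CEACAM6 show a dot in HT29 alone, while NEAT1, IER2 and AXIN2 lack one in HT29.

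Among 9 long non-coding RNAs, only MALAT1, an abundant nuclear transcript, had HT29 peaks. The 3 held 46, 80 and 77 reads with folds of 3.05, 2.09 and 1.64, and all were shared. NEAT1 and TUG1 had peaks in HCT116, COLO320DM and COLO205 and none in HT29. No HT29 peak lay at the 5 small non-coding RNA or 3 housekeeping loci.

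Position within the gene showed no difference that these numbers could resolve. Where the strand was known, 4 of 13 private peaks (30.8%, 9.09% to 61.4%) and 26 of 95 shared peaks (27.4%) lay in the last 10% of the gene's length. The interval for the 13 private peaks spans both shares. Exons, stop codons and sequence motifs were not analysed here.

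The reverse gap, a region in the 3 other long lists without an HT29 peak, occurred 626 times, against 976 for COLO320DM, 283 for COLO205 and 248 for HCT116, while 1481 regions were in all 4 long lists. At 11 of the 123 loci the other long lists all had peaks and HT29 had none. IER2, an immediate-early gene, lacked 2 such regions, the stronger with 65 reads in HCT116, 28 in COLO320DM and 25 in COLO205. AXIN2, a feedback inhibitor of Wnt signalling, lacked 1 with 16, 40 and 15 reads in the same order. YTHDC1, the nuclear m6A reader, lacked 1 with 19, 31 and 16 reads. ZNRF3 and ARID1A each lacked 1 region while keeping other HT29 peaks.

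Along the genome both groups crowded towards chromosome ends. Within 5 Mb of an end, 7.64% of these chromosomes, lay 28.5% of private and 25.3% of shared peaks. That small difference was 1.69 points without the COLO320DM list, and turned around under other rules. It turned to 25.8% and 26.7% when a gap of up to 1 kb counted as shared. At matched reads below 32 the order turned under the 1-nt rule too. Within 5 Mb lay 27.4% of private and 35.04% of shared peaks with 3 or 4 reads, and 31.9% and 34.9% with 5 to 7. The shares were 23.6% and 25.8% at 8 to 15 reads, and 9.88% and 15.8% at 16 to 31. At 32 or more reads, with only 6 private peaks, they were 16.7% and 15.98%. Beside centromere gaps (within 2 Mb) lay 3.85% of private and 7.26% of shared peaks. Those 514 peaks held more reads, with a median of 17.5 against 8 in the whole HT29 list. Of them, 31.3% were input-poor and 23.3% were private. How uniquely reads map beside these gaps was not tested.

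By chromosome the private share ran from 24.3% (102 of 419) on chromosome 4 to 47.6% (59 of 124) on chromosome 18, with chromosome 7 at 44.9% (284 of 633). The chromosome 18 value rests on few peaks. The interval lay above the 36.5% of the list on chromosomes 7 (40.9% to 48.8%), 11, 18 and 20, and below it on chromosomes 4 (20.3% to 28.7%), 6, 17 and 21. These intervals take each peak as independent, although another HT29 peak lay within 1 kb of 41.2% of HT29 peaks. They are not adjusted for the number of chromosomes compared. Of the peaks on chromosome 4, 49.9% were input-poor, and on chromosome 7, 63.7%. Chromosome 19 had the densest peaks, 8.13 per Mb, and a private share of 40.3%. Differences in copy number between lines were not tested.

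**Figure D5:**
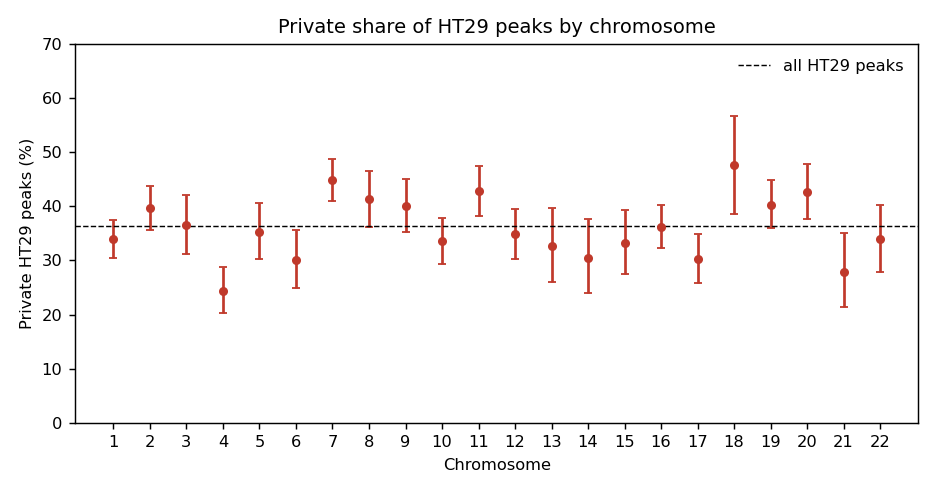
Points give the percent of HT29 peaks on each chromosome that are private, with exact 95% binomial intervals for counting error only, and the dashed line is the 36.5% of all HT29 peaks. Chromosome 4 lies lowest at 24.3%, and chromosomes 18 (47.6%) and 7 (44.9%) lie highest.

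The 3 windows of 1 Mb with most private peaks all lay towards chromosome ends. The first, chr7:157000001-158000000, held 60 HT29 peaks, 32 private and 29 of those input-poor, while COLO205 had 33 peaks there, HCT116 21, HCT15 3 and COLO320DM 1. The second, chr12:132000001-133000000, held 51 with 25 private, and the third, chr11:1000001-2000000, held 46 with 20 private. The median peak in each of these windows had 6 reads.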

How the data were processed

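Each of the 5 IP libraries has 1 deposited peak list, and the inputs entered only through it. Per the submitters' processing notes, cutadapt, FastQC, BWA, MACS2 and hg19 were used; versions and parameters are not given in the sources used here. For each peak the authors deposited a fold (a ratio of summit signal over background) beside a −log10 p, a −log10 q and a score. These values are the authors' own and describe peaks within a list; positions are printed counting from 1.

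IP reads and background were solved from fold, (reads + 1) / (background + 1), and the Poisson −log10 p within 0.001, for 100% of peaks in HT29, HCT116, COLO320DM and COLO205. HCT15 reads were not recovered here. On 1146 simulated peaks the reads and background came back in 100%, and the overlap code was right for 100% of 400 simulated cases. Depth assumes a genome of 2.7 Gb and 75-nt fragments in HT29. Each control was assumed to be the input of its own line; no source used here says so.

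Members, loci and lists were chosen with earlier results of these data known. Locus bounds on hg19 came from general knowledge and were checked against RefSeq (GRCh38). Loci up to 1.1 times the RefSeq length were kept, 123 of 123 listed and 68 of 69 added after values were seen; 167 of all 192 were within 10% of that length, and the 191 kept were in RefSeq order. A peak counts for a locus by overlap, whatever its strand, so overlapping genes cannot be told apart. Chromosome lengths and centromere gaps came from general knowledge too, and 0 peaks lay beyond an end or in a gap.

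Named peaks were the 5 private peaks of highest −log10 p, the top 3 private by fold, width and reads, the top 3 in 4, 3 and 1 other lists, those at the overlap threshold, and the 3 windows with most private peaks. Some listed loci are counted but not reported singly here. There was no test and no p-value of the comparison. Alternatives were other overlap rules, stricter q, fold and reads, equally long lists and each list left out. The work used Python 3.11.15 with matplotlib 3.10.9, scipy 1.17.1, pandas 2.3.3 and numpy 2.4.6.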

Additional observations from a re-analysis of the deposited data

Results flagged for a closer look

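HT29 peaks outside chromosomes 1 to 22 entered no comparison above. Sets of more than 3 peaks were flagged, a limit that is no test, and the mitochondrion held 3 (0 private). Chromosome X held 157 HT29 peaks, 72 of them private, with a median of 8 reads. Chromosome Y held 137, of which 20 were private and 102 input-covered, with a median of 22 reads. These are placements in the deposited list, and whether the reads map only to chromosome Y was not tested. The unplaced contig GL000216 held 27 (9 private) and GL000220 held 4 (4 private, median 44.5 reads). Alternative haplotypes held 41 (20 private), and the other contigs held 33 (20 private).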

How the results depend on the processing

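The private share of HT29 peaks was 36.5%. It became 55.8% with a reciprocal overlap of 50%, 43.6% with summits within 100 nt, 32.04% and 23.7% with gaps of up to 100 nt and 1 kb counted as shared, 25.6% with HT29 peaks of −log10 q of at least 5, 39.9% with that limit on all lists, 34.5% with equally many strongest peaks, 38.5% with the long lists cut to the shortest of them and 13.2% with 8 or more reads. Without HCT116 it was 40.8%, without COLO320DM 39.0% and without COLO205 53.4%. Private minus shared medians were negative under each alternative tried, but with equally many strongest peaks the intervals of the width difference (-90 to 2) and the fold difference (-0.36 to 0.50) span 0. The width difference of -45 nt became -27.5 (reciprocal), -39 (1-kb gap), -58 (HT29 q) and -35 (without COLO205). The read difference of -6 became -8, -4, -7 and -8 under the same 4, and -11 with equally many strongest peaks. The fold difference of -0.71 became -0.46 with the 1-kb gap and -0.046 with equally many strongest peaks. The input-poor difference of 38.4 points became 45.0 (reciprocal), 33.2 (1-kb gap), 31.6 (equally many) and 45.9 (without COLO205). The difference within 5 Mb of an end, 3.21 points, became 11.3 (reciprocal), 6.13 (without COLO205) and 1.69 (without COLO320DM, interval -1.03 to 4.42), and turned to -0.902 with the 1-kb gap and -3.21 with equally many strongest peaks; the cause was not tested. Chosen after seeing the data, a reciprocal overlap moved the private share at 32 or more reads from 1.16% to 8.29% and at the listed loci from 12.3% to 31.97%. A pseudocount of 0 was not carried further. Tried on the first 300 peaks of each long list, it solved at most 0.667% of them. No paired analysis was possible because each line has 1 IP library. Depth differed between lists, and its part in the private share was not tested.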

Other observations

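The loci below were chosen after their values were seen. FOXA1, a pioneer transcription factor of endodermal epithelium, had 5 input-covered HT29 peaks within the gene, 4 of them private. The private ones held 24, 27, 25 and 29 reads over 4.35 to 8 input fragments, with folds of 4.32 to 6.28. They lay side by side at chr14:38060462-38061322, 325 to 954 nt from a peak of another list. All 4 would therefore count as shared with a gap of up to 1 kb. The fifth, of 30 reads, was shared with COLO320DM, which had 1 peak at FOXA1, and HCT116, HCT15 and COLO205 had none. ALPK3 showed the same count, 4 private of 5, with 17 to 37 reads in the private peaks and 76 reads in the peak shared with HCT116. At FOXQ1, a forkhead factor, a private peak of 33 reads lay 80 nt from a COLO205 peak, so that locus was not marked in HT29 alone. At BCAS1, a private peak of 27 reads lay 74889 nt from the nearest other peak, and a second HT29 peak of 25 reads was shared with COLO205.

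Several other genes held a larger share of private peaks than the 36.5% of the whole HT29 list, as they were picked to. PTPRN2, a receptor-type phosphatase gene of secretory granules, held 66 HT29 peaks, 35 private and 56 input-poor; COLO205 had 40 there, HCT116 24, HCT15 7 and COLO320DM 0. COL22A1 held 13 with 11 private, 10 of the 13 input-poor, and 5 in COLO205. TRAPPC9 held 15 with 9 private, PRKAR1B 14 with 9 private, PRKCZ 7 with 6 private and TERT, the telomerase reverse transcriptase, 5 with 3 private. At PRKAR1B 12 of the 14 were input-poor, at TRAPPC9 12 of the 15, at PRKCZ 4 of the 7 and at TERT 2 of the 5.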
